A study of Caenorhabditis elegans with 78 samples.

Results

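H3K4me3 peaks of lin-37(n758) first-stage (L1) larvae of Caenorhabditis elegans were compared between 26 and 20 °C, with 2 peak lists at each temperature. The 4 lists merged into 8090 regions. A region was 26-specific when both 26 °C lists and no 20 °C list called it, which held for 762 regions, or 9.42% of all. A region was 20-specific when both 20 °C lists and no 26 °C list called it, which held for 112 regions, or 1.38%. All 4 lists called 4371 regions, and 2845 regions had some other call pattern. The rule uses only the presence of a peak, so the direction of a call is given by the rule and is described here without a test.

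H3K4me3, histone H3 trimethylated at lysine 4, is deposited by SET1/COMPASS-type methyltransferases around the start sites of active genes, and its peaks in worms lie mostly at promoters. LIN-37 is a subunit of DREAM, a complex that represses cell cycle genes and, in the worm soma, many germline genes. LIN-35, the worm retinoblastoma-like pocket protein, belongs to the same complex. LIN-15B, which carries a THAP domain and is grouped with them among the synMuv B proteins, acts on many of the same genes. Loss of these proteins causes germline genes to be expressed in somatic cells and, at high temperature, arrest in early larval life. H3K9me2, histone H3 dimethylated at lysine 9, marks repressed chromatin, which in this animal is rich on the arms of the autosomes and at repeats.

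The groups used were lin-37(n758) at 26 °C and at 20 °C and, for reference at the same regions, lin-15B(n744), lin-35(n745) and wild type (N2) at both temperatures, all whole L1 larvae with 2 H3K4me3 libraries per genotype and temperature. The series holds 78 samples over 4 histone marks and inputs. The 26 °C animals came from cultures kept at 20 °C up to the fourth larval stage and warmed from there on, so that the frozen L1 progeny had developed at 26 °C. The groups therefore differ in parental as well as embryonic exposure, and whole larvae mix somatic cells with the primordial germ cells. Fewer cells carrying a mark and less of the mark per cell cannot be told apart in such samples. The labels do not say whether replicates were separate cultures, so the spread between lists may be technical.

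The 26 °C lists of lin-37 were longer than its 20 °C lists. They held 6842 and 7083 peaks at 26 °C, against 6090 and 5421 peaks at 20 °C, and covered 6.39 and 5.66 Mb at 26 °C, against 5.06 and 4.26 Mb at 20 °C. The groups did not overlap in either measure, with a mean of 6962.5 ± 170 peaks at 26 °C against 5755.5 ± 473 at 20 °C (SD, n = 2 each; exact permutation test, two-sided p = 0.333, adjusted over 7 measures 0.467). With 2 lists against 2 a two-sided p cannot go below 0.333, so no per-list measure could pass a threshold of 0.05. The median peak width was 771.5 and 654 bp at 26 °C, against 681 and 658 bp at 20 °C, and the median fold was 7.42 and 5.75 at 26 °C, against 6.62 and 4.47 at 20 °C. Both of these measures overlapped between temperatures. The fold is the authors' value for a peak, its enrichment over the input at the summit, and was used to describe and rank peaks within a list. Across lists, only the list medians were compared, and regions were ordered by the lower of their folds.

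The asymmetry of 762 against 112 regions was read beside the length of the lists. When each list was cut to its 5421 peaks with the highest −log10 p-value, with ties ordered by fold, 380 regions were 26-specific and 225 were 20-specific. Of the 762 regions 337, or 44.2%, were still 26-specific at equal peak numbers, and of the 112 regions 82, or 73.2%, were still 20-specific. Each call also rests on every list. Without 26 °C replicate 1, 26 °C replicate 2 or 20 °C replicate 1 there were 1497, 1614 or 1188 regions called only at 26 °C, and without 20 °C replicate 2 there were 853. The same omissions gave 191, 251, 256 and 467 regions called only at 20 °C.

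The lists disagreed most where a single list called a region. One list alone called 1856 regions, of which 807 came from 26 °C replicate 1 and 592 from 26 °C replicate 2, against 337 from 20 °C replicate 1 and 120 from 20 °C replicate 2. Both 26 °C lists and 20 °C replicate 1 called 417 regions, and both 26 °C lists and 20 °C replicate 2 called 90. Lists of the same temperature overlapped more than lists of different temperature. The Jaccard index measures the overlap of 2 lists and was not counted over the merged regions. It was 0.697 between the 26 °C lists and 0.745 between the 20 °C lists. For the 4 pairs across temperatures it lay between 0.579 and 0.672. One 26 °C list and one 20 °C list (26 °C replicate 1 and 20 °C replicate 2) carried the same library tag in their file names, whose meaning the labels do not give. Between those lists 2070 regions were called only at 26 °C and 389 only at 20 °C, and between the other pair 1468 only at 26 °C and 600 only at 20 °C.

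**Figure D1:**
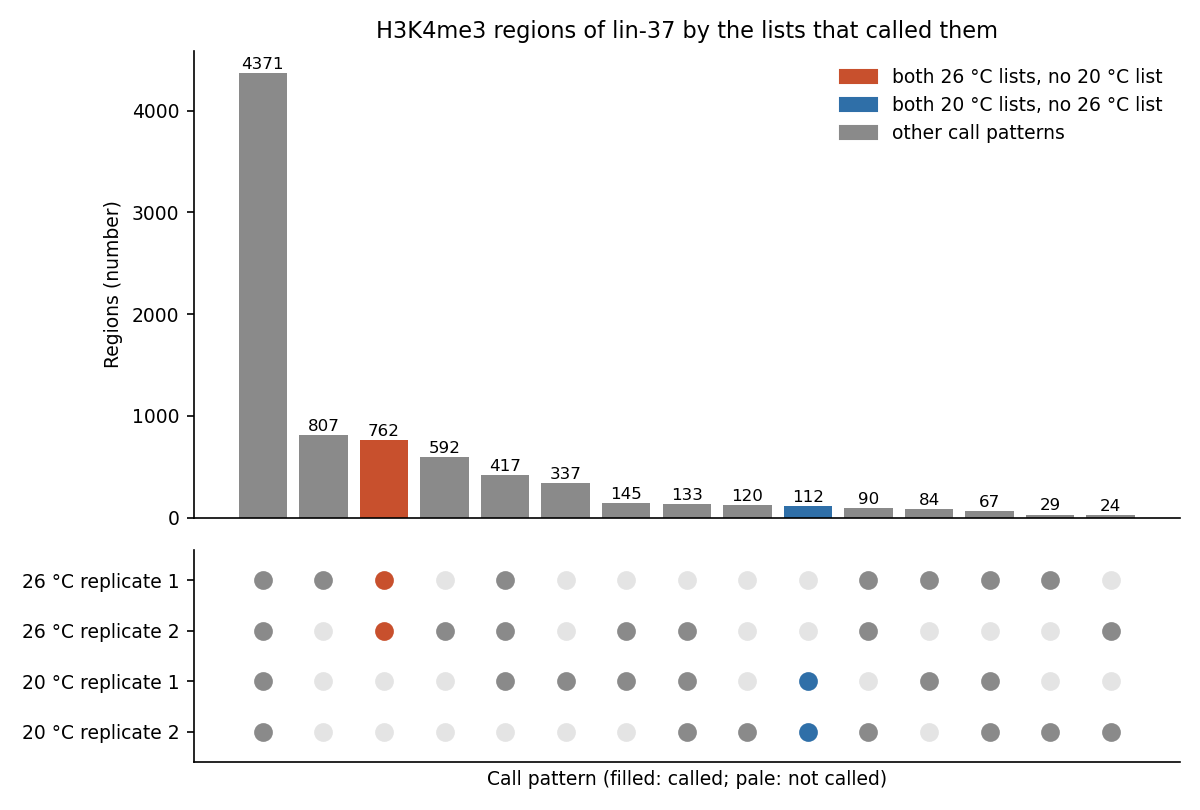
Number of lin-37 H3K4me3 regions (vertical axis) with each of the 15 call patterns, where the filled dots below a bar mark the lists that called its regions. The 762 regions of the 26-specific pattern outnumber the 112 of the 20-specific pattern, and regions called by all 4 lists (4371) are the most frequent.

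Most temperature-specific peaks were weak within their own lists. The 26-specific regions had a median fold of 3.65 in 26 °C replicate 1 (1.65 to 34.0) and of 3.35 in 26 °C replicate 2 (1.84 to 23.9), which placed the median region at percentiles 30.5 and 27.1 of the folds in those lists. The 20-specific regions had a median fold of 3.26 in 20 °C replicate 1 (2.28 to 5.98) and of 2.00 in 20 °C replicate 2 (1.504 to 3.71), at percentiles 18.8 and 11.4. Regions called in all 4 lists had median folds of 19.2 and 11.9 in the 26 °C lists and of 11.1 and 6.26 in the 20 °C lists. The classes also differed in their upper end. In both of their lists 69 of the 762 26-specific regions (9.06%) lay above the list's median fold, and 2 lay above the 75th percentile. None of the 112 20-specific regions lay above the list median in either list.

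Temperature-specific regions were also short. The 26-specific regions had a median covered length of 486.5 bp in 26 °C replicate 1 and 392.5 bp in 26 °C replicate 2, and the 20-specific regions of 417 bp in 20 °C replicate 1 and 395.5 bp in 20 °C replicate 2. The shortest peak in every list was 250 bp, the extension size that the peak names give. Averaged over a region's own lists, the median covered length was 449.75 bp for 26-specific regions, 421 bp for 20-specific regions, 354 bp for the other patterns and 908.5 bp for regions called in all 4 lists. Of the 26-specific regions 129 (16.9%) and of the 20-specific regions 26 (23.2%) lay within 1 kb of a region called in all 4 lists, against 637 (22.4%) of the regions with other patterns.

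**Figure D2:**
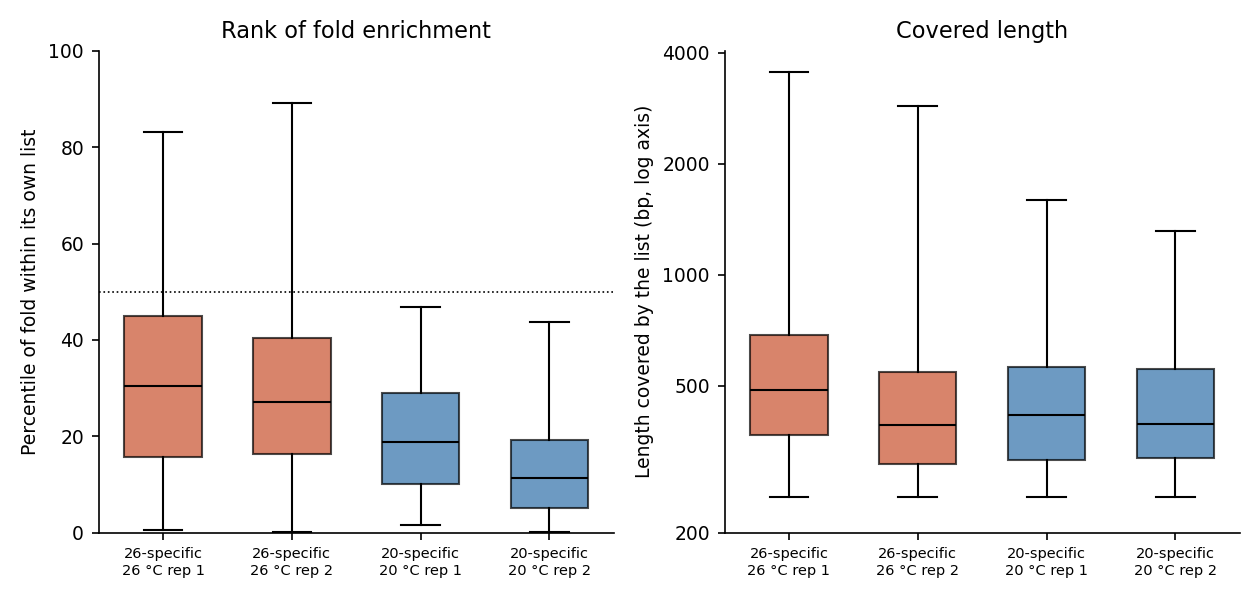
Percentile of a region's fold among the peaks of its own list (left, 0 to 100, dotted line at the list median) and length covered by that list's peaks in bp (right, log axis), for 762 26-specific regions in the 26 °C lists and 112 20-specific regions in the 20 °C lists. Boxes span the quartiles with the median as a line and whiskers reach the lowest and highest region; no 20-specific region reaches the list median.

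The strongest 26-specific regions can be described one by one, in ce10 coordinates. Regions are ordered by the lower of their folds in 26 °C replicates 1 and 2. The first, chrIV:193847-194881, had folds of 34.0 and 23.9, lay on the left arm of chromosome IV and overlapped H3K9me2 peaks in all 4 lin-37 lists. No wild-type list called it at either temperature, and all 8 lists of lin-15B and lin-35 did. The second, chrIV:16859237-16860701 on the right arm, had folds of 33.1 and 23.1, and both wild-type 26 °C lists but no wild-type 20 °C list called it. The third, chrIII:3499727-3500684, had folds of 24.8 and 18.5 and, like the first, was called in no wild-type list, in all 8 lists of the other mutants and within H3K9me2 in all 4 lin-37 lists.

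The next regions varied in their calls elsewhere. The region chrII:3494965-3495835 had folds of 25.6 and 14.1 and was called in wild type in both 26 °C lists and neither 20 °C list. The regions chrX:8410429-8411160 (18.5 and 13.5), chrIV:4313328-4314438 (30.5 and 12.2) and chrV:19697327-19698184 (23.0 and 10.7) were called in no wild-type list and in all 8 lists of lin-15B and lin-35. Of these, chrX:8410429-8411160 is the only region on X among the 10 strongest and overlapped no H3K9me2 peak in lin-37. The region chrIII:1331353-1332164 had folds of 16.3 and 12.5 and was called in all 4 lin-15B lists and both lin-35 26 °C lists, but in no wild-type list and in neither lin-35 20 °C list. The region chrIV:958979-959779 (18.3 and 12.0) was called in every 26 °C list of the other genotypes and in 1 of 2 20 °C lists of each.

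In all, 7 of the 10 strongest 26-specific regions were called in no wild-type list, 5 of these were called in all 8 lists of lin-15B and lin-35, and 2 had the 26-specific pattern in wild type. On an autosomal arm lay 9 of the 10, and 5 overlapped H3K9me2 in all 4 lin-37 lists. The remaining region, on chromosome I (folds of 13.7 and 10.8), was called in all 4 lin-15B lists and in no list of lin-35 or wild type.

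The widest 26-specific regions were called in most of the 12 lists of the other genotypes, as were lin-37 regions in general. The median was 10 lists for all 8090 regions and 6 for the 26-specific regions. The widest, chrII:2287647-2291427, had 3009 bp covered in 26 °C replicate 1 and 2874 bp in 26 °C replicate 2, with folds of 8.51 and 8.54. It was called in 11 of the 12 lists of the other genotypes, all 4 wild-type lists among them, and overlapped H3K9me2 in all 4 lin-37 lists. The other 4 of the 5 widest (chrIV:11349904-11352570, chrIV:11021839-11025403, chrII:11842698-11845473 and chrII:5932667-5935111) were called in 12, 10, 12 and 8 of those lists. Of the 5 widest regions 4 were called in all 4 wild-type lists, against 12.9% of the 26-specific regions and 54.7% of all regions.

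The 20-specific regions held no comparably strong peak. The first by its lower fold, chrV:9630195-9630776, had folds of 5.32 in 20 °C replicate 1 and 3.71 in 20 °C replicate 2, and overlapped H3K9me2 in both lin-37 20 °C lists and neither 26 °C list. It was called in 2 of 6 26 °C lists and 6 of 6 20 °C lists of the other genotypes. The next, chrV:19543447-19544122 (5.62 and 3.33), overlapped H3K9me2 in all 4 lin-37 lists. The widest, chrIII:11559338-11560931 (4.30 and 3.20), had 1594 and 1312 bp covered. The 10 strongest spanned arms (3), centres (4) and X (3). Of these, 7 were called in no lin-35 26 °C list. The lin-35 26 °C lists called few of the whole class, 12.5 and 14.3% of the 112 regions, against 64.9 and 71.2% of all regions. Over the other genotypes the mean share of the 112 regions called was 34.5% at 26 °C and 53.6% at 20 °C, against 71.3% and 67.0% of all regions. No wild-type list called 1 of the 10, against 16.1% of the 112 regions and 17.8% of all regions.

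Strong 26-specific regions had no wild-type peak more often than the class as a whole. Grouping by these calls was chosen after the values were seen and is given as a description, as are the shares by position and by H3K9me2 that follow, for which no test was made. No wild-type list called 254 of the 762 regions (33.3%), against 17.8% of all 8090 regions. Of those 254 regions 43 lay above the list median fold in both 26 °C lists, so that 43 of the 69 stronger regions (62.3%) had no wild-type peak, whereas 12 of the 69 had the 26-specific pattern in wild type and 4 were called in all 4 wild-type lists. Both wild-type 26 °C lists and no wild-type 20 °C list called 151 of the 762, or 19.8%, against 4.8% of all lin-37 regions. All 4 wild-type lists called 98 (12.9%), against 54.7% of all lin-37 regions.

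A small subset was called in no wild-type list and in all 8 lists of lin-15B and lin-35. It held 28 of the 762 26-specific regions (3.67%) and none of the 112 20-specific regions. Among the 8090 regions 107 (1.32%) had these calls in the other genotypes, of which 64 were called in all 4 lin-37 lists. A count of 0 among only 112 regions lies near that share of all regions. The 28 regions had a median lower fold of 6.41 and a median covered length of 640.5 bp, and 17 of them lay above the list median fold in both 26 °C lists. On an autosomal arm lay 22 of the 28 (78.6%), and 15 (53.6%) overlapped H3K9me2 in all 4 wild-type lists. Of the 107 regions with these calls 75 (70.1%) lay on an arm and 71 (66.4%) overlapped H3K9me2 in all 4 wild-type lists. Of all 8090 regions 45.2% lay on an arm and 18.1% overlapped H3K9me2 in all 4 wild-type lists.

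**Figure D3:**
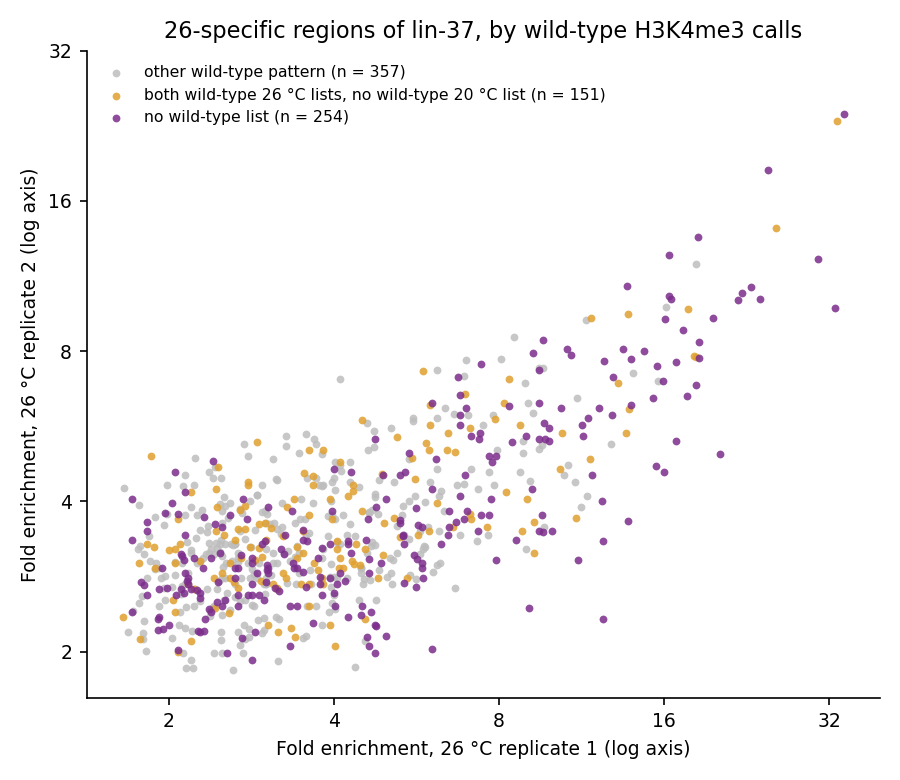
Fold of each of the 762 26-specific regions in 26 °C replicate 1 (horizontal, log axis) and 26 °C replicate 2 (vertical, log axis), coloured by the wild-type H3K4me3 lists that called it. Regions of all 3 kinds gather at low folds, with median lower folds of 3.07 with no wild-type peak (254, purple) and 3.03 with the 26-specific pattern in wild type (151, orange); other wild-type patterns are grey (357). Of the 69 regions above the list median in both lists 43 are purple.

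The 26-specific regions lay more often on autosomal arms, defined as the outer 30% at each end of a chromosome. Of the 762 regions 444 (58.3%) lay on arms, 243 (31.9%) in centres and 75 (9.84%) on X. Of the regions called in all 4 lists 43.6% lay on arms, 42.99% in centres and 13.5% on X. Seen the other way, 12.1% of all arm regions were 26-specific, against 7.60% of centre regions and 6.07% of X regions. The arm exceeded the centre on each autosome, from 10.7% against 9.12% on IV to 14.0% against 6.87% on III. At equal peak numbers the shares were 8.86% of arm, 3.07% of centre and 2.98% of X regions.

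The stronger regions lay on arms more often still, with 57 of the 69 (82.6%) there, 9 in centres and 3 on X. The 20-specific regions were placed otherwise, with 54 (48.2%) on arms, 30 (26.8%) in centres and 28 (25%) on X. They made up 1.48% of arm, 0.938% of centre and 2.27% of X regions, and at equal peak numbers 2.86%, 3.03% and 5.97%. X thus had the lowest share of 26-specific and the highest share of 20-specific regions among these 3 compartments at either setting. At equal peak numbers, however, its 26-specific share hardly differed from that of centres (2.98% against 3.07%). X also had the lowest share of regions called in all 4 lists, 47.6%, against 52.1% of arm and 58.8% of centre regions. Over whole lists the arm share of the covered autosomal length was 51.2 and 51.2% at 26 °C, against 49.9 and 50.5% at 20 °C, and the X share was 12.2 and 13.56% at 26 °C, against 14.9 and 13.57% at 20 °C. Neither pair of groups overlapped, the X shares by a margin of the last digit only, with differences of 1.02 percentage points for arms and -1.36 points for X (n = 2 each; exact permutation test, two-sided p = 0.333 for each, adjusted over 7 measures 0.467).

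**Figure D4:**
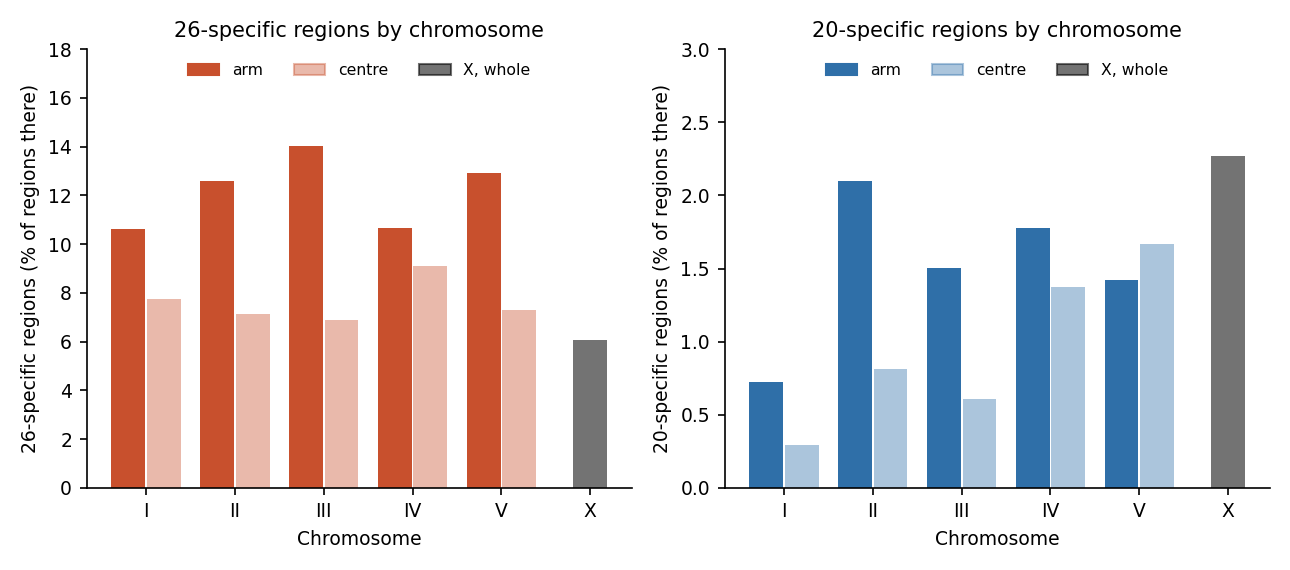
Share of lin-37 H3K4me3 regions on each chromosome that were 26-specific (left) and 20-specific (right), in percent of the regions there, for autosomal arms (dark), autosomal centres (pale) and the whole of X (grey). The vertical scales differ; arms exceed centres on all 5 autosomes for 26-specific regions, and X has 2.27% 20-specific regions.

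H3K9me2 was described at the same regions from the 4 H3K9me2 peak lists of lin-37, which share their labelled inputs with the H3K4me3 lists of the same temperature and replicate. H3K9me2 peaks of 26 °C replicates 1 and 2 overlapped 27.03 and 28.6% of the 26-specific regions, and those of 20 °C replicates 1 and 2 overlapped 30.7 and 26.4%. The temperatures overlapped, with means of 27.8 ± 1.11% at 26 °C and 28.5 ± 3.06% at 20 °C (SD, n = 2 each). For all 8090 regions the shares were 17.7 and 21.3% at 26 °C, against 21.8 and 18.2% at 20 °C. The 20-specific regions had 17.9 and 25% at 26 °C, against 28.6 and 24.1% at 20 °C, which also overlapped.

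In each of the 4 lists the share of 26-specific regions with H3K9me2 exceeded that of all regions, and it did so at both temperatures alike. All 4 H3K9me2 lists overlapped 162 (21.3%) of the 26-specific regions, 15 (13.4%) of the 20-specific regions and 589 (13.5%) of the regions called in all 4 H3K4me3 lists. Arms hold more H3K9me2 than centres: within arms the shares were 32.9%, 25.9% and 24.9%, and within centres 5.76%, 3.33% and 4.52%. No H3K9me2 list overlapped 491 (64.4%) of the 26-specific and 72 (64.3%) of the 20-specific regions, against 73.4% of all regions. In wild type, H3K9me2 peaks overlapped 36.9 and 29.4% of the 26-specific regions at 26 °C, against 34.4 and 40.4% at 20 °C, and of all regions 27.9 and 21.3% at 26 °C, against 23.8 and 26.996% at 20 °C.

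The 26-specific regions that overlapped H3K9me2 in all 4 lin-37 lists had somewhat higher folds than those without it, although most of them were weak as well. Their median lower fold was 3.72 and their median covered length 512.25 bp (162 regions), against 2.74 and 424.5 bp for the 491 regions without H3K9me2. Above the list median fold in both 26 °C lists lay 33 of the 162 (20.4%), against 23 of the 491 (4.68%). Of the 69 stronger regions 33 (47.8%) overlapped H3K9me2 in all 4 lin-37 lists and 38 (55.1%) in all 4 wild-type lists. For all 762 26-specific regions these shares were 21.3 and 26.2%, and for all 8090 regions 13.7 and 18.1%. At whole-list level H3K9me2 was taken as the regions called in both lin-37 H3K9me2 lists of the same temperature, so the reference differed between temperatures. These regions overlapped 18.9 and 17.4% of all H3K4me3 peaks at 26 °C, against 15.8 and 15.7% at 20 °C, groups that did not overlap (18.2 ± 1.06% against 15.8 ± 0.130%, SD, n = 2 each; exact permutation test, two-sided p = 0.333, adjusted over 7 measures 0.467).

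Few regions changed in both marks. Both lin-37 20 °C H3K9me2 lists and neither 26 °C list overlapped 16 (2.10%) of the 26-specific regions, against 1.43% of all regions, and the opposite H3K9me2 pattern held for 12 (1.57%), against 1.09% of all regions. Of the 20-specific regions 5 (4.46%) had H3K9me2 at 20 °C only and 2 (1.79%) at 26 °C only, against the same shares of all regions. These counts are small. The strongest of the 16 was chrII:11860812-11861319, with H3K4me3 folds of 18.5 and 8.34 in the 26 °C lists, H3K9me2 only at 20 °C in lin-37 and H3K9me2 in all 4 wild-type lists. No wild-type list called H3K4me3 there, and all 8 lists of lin-15B and lin-35 did. Among the others were chrII:6977191-6978047 (15.3 and 6.43), called in the 26 °C but not the 20 °C lists of lin-15B and lin-35 and in no wild-type list, and chrV:17209027-17209485 (6.94 and 6.57), called in both 26 °C lists and no 20 °C list of all 3 other genotypes. The region chrII:1073233-1073703 (6.97 and 6.16) had both marks at 26 °C only.

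The same regions were looked up in the 12 H3K4me3 lists of the other genotypes, which the rule did not use. The 26-specific regions were called more often at 26 °C. In lin-15B the lists called 45.3 and 79.3% of them at 26 °C, against 20.6 and 73.9% at 20 °C. In lin-35 the shares were 52.4 and 69.0% at 26 °C, against 41.6 and 20.997% at 20 °C, and in wild type 62.5 and 47.6% at 26 °C, against 22.3 and 24.3% at 20 °C. The temperatures did not overlap in lin-35 or wild type and overlapped in lin-15B. Over the 6 lists of each temperature the share was 59.3 ± 13.3% at 26 °C and 33.9 ± 21.1% at 20 °C (SD, n = 6 each). For all lin-37 regions it was 71.3 ± 8.79% at 26 °C and 67.0 ± 11.03% at 20 °C. The means thus differed by 25.4 percentage points at the 26-specific regions and by 4.30 points at all regions.

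The 20-specific regions varied more between lists. In lin-15B the lists called 15.2 and 80.4% of them at 26 °C, against 30.4 and 92.0% at 20 °C. In wild type the shares were 65.2 and 19.6% at 26 °C, against 26.8 and 59.8% at 20 °C. Both genotypes overlapped between temperatures. In lin-35 the shares were 12.5 and 14.3% at 26 °C, against 82.1 and 30.4% at 20 °C, without overlap. Over all lists the share was 34.5 ± 30.1% at 26 °C and 53.6 ± 28.7% at 20 °C (SD, n = 6 each). These means differ by less than 1 SD. In each genotype and temperature the list carrying the file-name tag that is shared with 2 lin-37 lists called more of the 26-specific, of the 20-specific and of all regions than its partner, and the part of the tag in these shares was not tested.

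Since a longer list can call more of both classes, the share of 26-specific regions minus the share of 20-specific regions was taken in each list. It averaged 24.8 ± 22.8 percentage points at 26 °C and -19.6 ± 15.004 points at 20 °C (SD, n = 6 each), and the 26 °C lists lay above the 20 °C lists within each genotype, by 28.4 points for lin-15B, by 72.3 for lin-35 and by 32.7 for wild type. The subtraction did not take out list length. In each genotype and temperature except lin-35 at 26 °C, the longer list had the lower difference. In wild type at 26 °C it was -2.71 with 7424 peaks and 28.0 with 6098. The longer list of each pair also carried the shared tag, and the part of either was not tested. In the 6 lists that carry the shared tag, 3 at each temperature, the difference averaged 16.98 ± 32.7 points at 26 °C and -31.4 ± 11.8 points at 20 °C. The positive mean at 26 °C came from lin-35 (54.7), with -2.71 for wild type and -1.09 for lin-15B. At 20 °C the tagged lists had -40.5 for lin-35, -35.5 for wild type and -18.1 for lin-15B, each below the tagged 26 °C list of its genotype. No p-value is given for these shares, because the regions were chosen with earlier results of the same lists known.

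**Figure D5:**
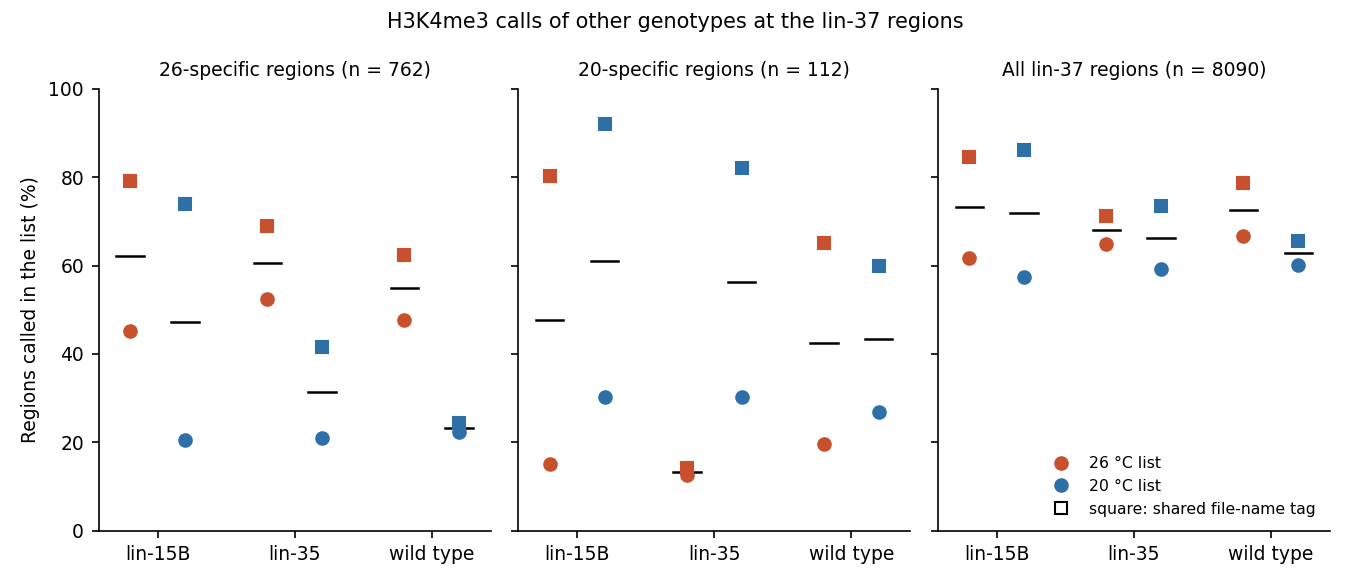
Share of the 762 26-specific, 112 20-specific and all 8090 lin-37 regions (panels) that each H3K4me3 list of lin-15B, lin-35 and wild type called, in percent, with 26 °C lists in red left of 20 °C lists in blue. Each point is a list, bars are the means of 2 lists, and squares are lists with the shared file-name tag; the 26-specific regions average 59.3% at 26 °C and 33.9% at 20 °C.

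Applied to each genotype's own 4 lists, the same rule found 122 26-specific and 43 20-specific regions among 8987 in lin-15B (1.36% and 0.478%), 232 and 195 among 8130 in lin-35 (2.85% and 2.4%), and 452 and 27 among 7834 in wild type (5.77% and 0.345%). At equal peak numbers the counts were 380 and 225 in lin-37, 200 and 89 in lin-15B, 263 and 167 in lin-35, and 220 and 115 in wild type, so that lin-35 had more 20-specific regions than lin-37 with the full lists and fewer at equal numbers. The difference in these counts between genotypes was not tested. Of the lin-37 26-specific regions 41 (5.38%) overlapped a 26-specific region of lin-15B, which was 33.6% of that genotype's. For lin-35 the overlap was 127 regions, 16.7% of those of lin-37 and 54.7% of those of lin-35, and for wild type it was 146, 19.2% of those of lin-37 and 32.3% of those of wild type. Of the 112 20-specific regions 2 (1.79%) overlapped a 20-specific region of lin-15B, 22 (19.6%) one of lin-35 and 3 (2.68%) one of wild type, which was 4.65% of those of lin-15B, 12.3% of those of lin-35 and 11.1% of those of wild type.

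Read at the lin-37 regions, the 26-specific call pattern held for 44 of the 762 regions with the lists of lin-15B (5.77%, against 0.989% of all lin-37 regions), for 132 with those of lin-35 (17.3%, against 2.61%) and for the 151 named above with those of wild type. At least 1 of the 3 genotypes showed it at 256 of the 762 regions (33.6%, against 7.29% of all regions), and all 3 at 12 (1.57%, against 0.161%). The opposite, 20-specific pattern held at 1 of the 762 regions for lin-15B, 12 for lin-35 and 0 for wild type, against 0.272%, 1.92% and 0.161% of all regions. For the 112 20-specific regions the 20-specific pattern held at 21 (18.75%) with the lin-35 lists, at 2 with those of wild type and at 0 with those of lin-15B. The 26-specific pattern held at 2 of the 112 (1.79%) with the lists of each of these genotypes. Of all regions it held for 0.989% with lin-15B, 2.61% with lin-35 and 4.80% with wild type. No list of another genotype called 32 of the 762 (4.20%), a share near the 5.49% of all regions. None of these 32 lay above the list median fold in both 26 °C lists.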

How the data were processed

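H3K4me3 and H3K9me2 ChIP-seq peak lists of L1 larvae were used, 16 for H3K4me3 and 8 for H3K9me2 (lin-37 and wild type). The other samples of the 78 were not analysed here. Groups and replicate numbers come from the labels. The submitters' processing notes name Bowtie 1.1.2, build ce10 and MACS2, the version of which is not given in the sources used here. Every library has its own list against its input, per the labels. The peak names in the deposited lists give a q cutoff of 0.01 and a size of 250 bp for H3K4me3 and 125 bp for H3K9me2. The fold of an H3K4me3 peak is its summit's enrichment over input, given with that summit's −log10 p-value and −log10 q-value, all as the authors' caller wrote them and deposited them. The lists hold no read counts, so depth is unknown and no counting interval can be given: a missing peak means that none was called.

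Lines with the same start and end were collapsed to 1 peak. Overlapping peaks of the 4 lin-37 lists were merged, and an overlap of 1 bp or more with a peak made a region called in that list. A region's fold in a list is that of its strongest peak there. Percentiles are among the peaks of the same list. Chromosome ends were taken as the highest peak end. The members and lists were chosen with earlier results of these data known. Named regions are the 10 with the highest lower fold and the 5 widest of each class, and up to 10 with temperature-specific H3K9me2; coordinates on chromosome I are not printed, and not all of the rest are. Genes and sequences at the regions were not used here, since no ce10 annotation was at hand.

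Per-library measures were compared by exact two-sided permutation of 2 lists against 2, with Benjamini-Hochberg adjustment over 7 measures. Permutation tests planned for shares of member regions in other lists are not given, since the members were not chosen independently of these data. Alternatives were a 200 bp overlap, −log10 q of at least 5, equal peak numbers, 1 kb bins, each list left out, and other pairings. Same-numbered lists of lin-37 did not deviate together (r = -0.131 over 4371 regions), so numbers were not taken as pairs. The code was checked on simulated data, in which planted regions were called in every list of their temperature and in none of the other. That check does not bear on weak or list-dependent calls. Python 3.11.15, numpy 2.4.6, pandas 2.3.3 and matplotlib 3.10.9 were used.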

Additional observations from a re-analysis of the deposited data

How the results depend on the processing

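A 200 bp overlap could not change the counts, since the shortest peak is 250 bp long and lies within its region. With equal peak numbers lin-37 had 380 26-specific and 225 20-specific regions, lin-15B 200 and 89, lin-35 263 and 167, and wild type 220 and 115. In 1 kb bins lin-37 had 1207 and 172 and lin-35 362 and 312, and the 20-specific counts were 81 in lin-15B and 48 in wild type. With −log10 q of at least 5, lin-37 had 792 and 91. Leaving out each list in turn gave 853 to 1614 26-specific and 191 to 467 20-specific regions in lin-37, 123 to 897 and 44 to 1257 in lin-15B, 262 to 851 and 283 to 1508 in lin-35, and 593 to 1751 and 45 to 259 in wild type; a rule with fewer lists is easier to meet. The H3K9me2 difference at 26-specific regions, -0.722 points, was -3.16 points at equal peak numbers. Without 1 list at a time the difference in median width ran from -15.5 to 102 bp, negative without 26 °C replicate 1, and that in median fold from -0.0351 to 2.11, negative without 20 °C replicate 2; the cause was not tested. In the other genotypes the difference between classes kept its sign in 21 alternatives, at 31.0 to 51.9 points. With the replicate number as a block the difference of 1207 peaks had p = 0.5, the smallest that an exact permutation of 2 pairs allows. With the pairing crossed p was likewise 0.5, and no pairing gave a call. The block and the permutation within file-name tag were not run for shares of member regions, which have no p. With 2 lists per temperature and no read counts, weak peaks near the q cutoff cannot be told from missing ones.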
